A study of Homo sapiens with 4 samples.

Results

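The genes of the NF-kB pathway were followed in human multiple myeloma cells given OSSL_325096 at 1 µM, against cells given its solvent DMSO. The compound is named by this code only. Members were the 33 genes of a list by name, covering NF-kB subunits, their inhibitors, kinases, TRAF adaptors, negative regulators and target genes, and all 33 were matched among the 57773 genes of the authors' deposited table. RNA was sequenced in 4 libraries of the established lines KMS12PE and KMS11, 1 per line and treatment, so that the 2 libraries of a treatment came from different lines. How long the cells were treated is not stated. Single libraries could not be read from the table, which summarises both lines in a log2 ratio for each gene, with an unadjusted and an adjusted p-value, and adds the RPKM of whichever treatment had the higher mean. RPKM is a read count scaled to transcript length and to library size, so levels can be compared between genes. A positive log2 ratio means higher with OSSL_325096, as the table's title orders the treatments. Of the members, 31 had at least 1 RPKM and entered the counts. The other 2 were the adaptor gene TRAF5 (0.797 RPKM, log2 ratio -0.13 in the authors' deposited table) and the dendritic and B cell surface gene CD83 (0.362 RPKM, log2 ratio -0.44).

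NF-kB is a family of dimeric transcription factors that are held in the cytoplasm by inhibitor proteins of the IkB family. In the canonical branch, a kinase complex of IKBKB, CHUK and the scaffold IKBKG marks the inhibitors for destruction, and in the noncanonical branch MAP3K14, a kinase kept low by TRAF2, TRAF3 and the cIAP proteins, starts the processing of the NFKB2 product. The released dimers bind kappaB sites in DNA, and many of their targets are the pathway's own inhibitors, a negative feedback. Myeloma cells often carry mutations that keep the pathway active, and normal plasma cells receive NF-kB signals through TNF family receptors.

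The promoters of many members carry the kappaB consensus, a degenerate motif of 10 bases. Stretches from some of these members, not all, are shown so that the values below can be read beside their sites. RefSeq promoter windows (GRCh38.p14), from 250 bases before to 50 bases after a transcription start, were held for 29 of the 33 members. None was matched for RELB, NFKBIE, IKBKB and IER3. Capitals mark matches to the consensus on either strand. Overlapping matches were each counted and run together in the lines. Each line reads 5′ to 3′ on the strand of the gene.
NFKBIA, minus strand, chr14:35404801-35404850: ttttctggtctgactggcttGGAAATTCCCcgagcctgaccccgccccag
NFKBIZ, plus strand, chr3:101827747-101827796: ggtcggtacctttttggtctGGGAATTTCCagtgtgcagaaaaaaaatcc
NFKB1, plus strand, chr4:102501290-102501339: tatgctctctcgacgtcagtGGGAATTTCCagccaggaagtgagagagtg
REL, plus strand, chr2:60881507-60881557: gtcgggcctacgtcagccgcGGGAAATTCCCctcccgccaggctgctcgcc
TNFAIP3, plus strand, chr6:137867172-137867233: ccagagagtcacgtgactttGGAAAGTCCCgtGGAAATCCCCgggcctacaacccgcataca
CYLD, plus strand, chr16:50741877-50741926: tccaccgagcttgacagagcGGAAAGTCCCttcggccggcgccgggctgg
TNIP1, minus strand, chr5:151081047-151081096: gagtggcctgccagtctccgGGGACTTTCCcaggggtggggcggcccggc
BIRC3, plus strand, chr11:102317265-102317314: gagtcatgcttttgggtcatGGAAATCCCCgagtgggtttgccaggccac
TRAF3, plus strand, chr14:102777396-102777445: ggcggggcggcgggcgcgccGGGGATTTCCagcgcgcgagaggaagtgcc

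A match was found in at least 1 window of 12 of the 29 members (41.4%), against 13.3% of the 27305 genes in the RefSeq promoter table and 17.4% of those that had at least 1 RPKM here. By window the share was 31.9% of 47 windows of members, against 11.3% of all 35116. Besides the genes shown, NFKB2, NFKBIB and CD83 held matches. NFKB2 and NFKBIB had the highest log2 ratios of the members with a match, 0.32 and 0.26. Further matches of NFKBIZ, BIRC3 and CYLD are not shown either. Read on the strand of the gene only, the same 10 bases, GGGAATTTCC, stood in the windows of NFKB1, NFKBIZ and NFKBIB, and in 0.0854% of all windows. GGAAAGTCCC was shared by TNFAIP3 and CYLD. The reverse complement of the first, GGAAATTCCC, stood in NFKBIA and REL, and in 0.0598% of all windows. That of GGAAAGTCCC, GGGACTTTCC, stood in NFKB2 and TNIP1. The members had been listed partly as NF-kB targets, so that this share describes the list. A match is a string of letters and does not show that the site was bound.

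**Figure D1:**
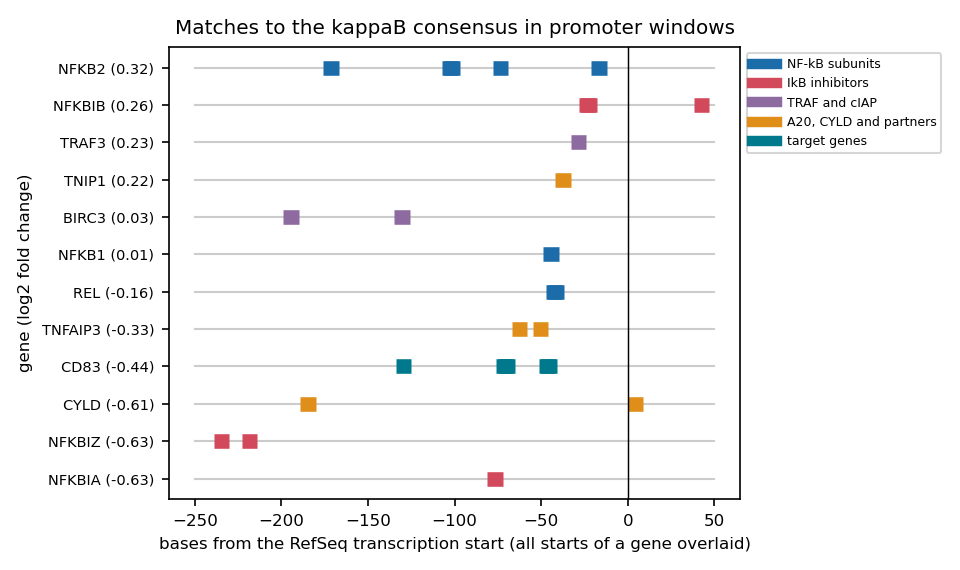
Positions of matches to the kappaB consensus (coloured blocks) in the RefSeq promoter windows of the 12 members that held one, in bases from the transcription start, with the windows of a gene's several starts drawn on 1 line. Genes are ordered by their log2 ratio of OSSL_325096 over DMSO, given beside the name, from NFKB2 at 0.32 to NFKBIA at -0.63. CD83, at -0.44, was below 1 RPKM.

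Across the pathway, PLEK was the lowest with OSSL_325096, and every other measured member lay within 1.55-fold of the solvent control. PLEK, which encodes pleckstrin, a substrate of protein kinase C in leukocytes and platelets that follows NF-kB activity in myeloma, was lower by 3.61-fold according to the authors' deposited table. The other members past 1.5-fold lay between 1.53 and 1.55-fold. On the low side were the IkB family genes NFKBIA and NFKBIZ and the deubiquitinase gene CYLD, and on the high side the IkB family gene NFKBIE. No member passed a test: 0 of the 31 had an adjusted p under 0.05 when the authors' p-values were adjusted by Benjamini-Hochberg over all 11324 genes of at least 1 RPKM (adjusted p = 0.999909 for each member), where 0% of all genes passed. An unadjusted p under 0.05 was found for 0 of the 31 members and for 5 of all genes (0.0442%), and the lowest among members was 0.154, for PLEK. By size, 4 of 31 members (12.9%) lay at least 1.5-fold below the control, against 4.95% of all genes, and 1 of 31 (3.23%) as far above it, again against 4.95%. Past 2-fold, 1 member was lower (1.09% of all genes) and 0 were higher (0.989% of all genes). Past a smaller threshold of 0.32 on the log2 scale, 6 members were lower, against 15.2% of all genes, and 8 were higher, against 16.4%. Their median log2 ratio was 0.13 (quartiles -0.11 and 0.29), beside 0.01 for all genes (quartiles -0.21 and 0.22).

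The error implied by the deposited p-values was large against these sizes. An implied standard error (SE) was worked back from each deposited p-value as if the log2 ratio had been tested against a normal curve, two-sided. The authors' model is not stated, so the SE is approximate. Over all genes of at least 1 RPKM the median implied SE was 1.10, while the log2 ratios themselves had an SD of 0.40. The implied SE was thus wider than the ratios' own spread and may not be the error of a ratio. The reason was not tested. Over the members the implied SE had a median of 1.02 on the log2 scale (range 0.83 to 1.91), and the fold change exceeded it for 1 of the 31, PLEK. The 4 other members past 1.5-fold lay within 0.05 of that threshold of 0.58 on the log2 scale, and TRAF2, at 1.48-fold, lay just inside it, so that the count of 4 lower members rests on where the threshold stands. In bulk RNA, fewer cells that express a gene and less of its RNA per cell cannot be told apart.

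**Figure D2:**
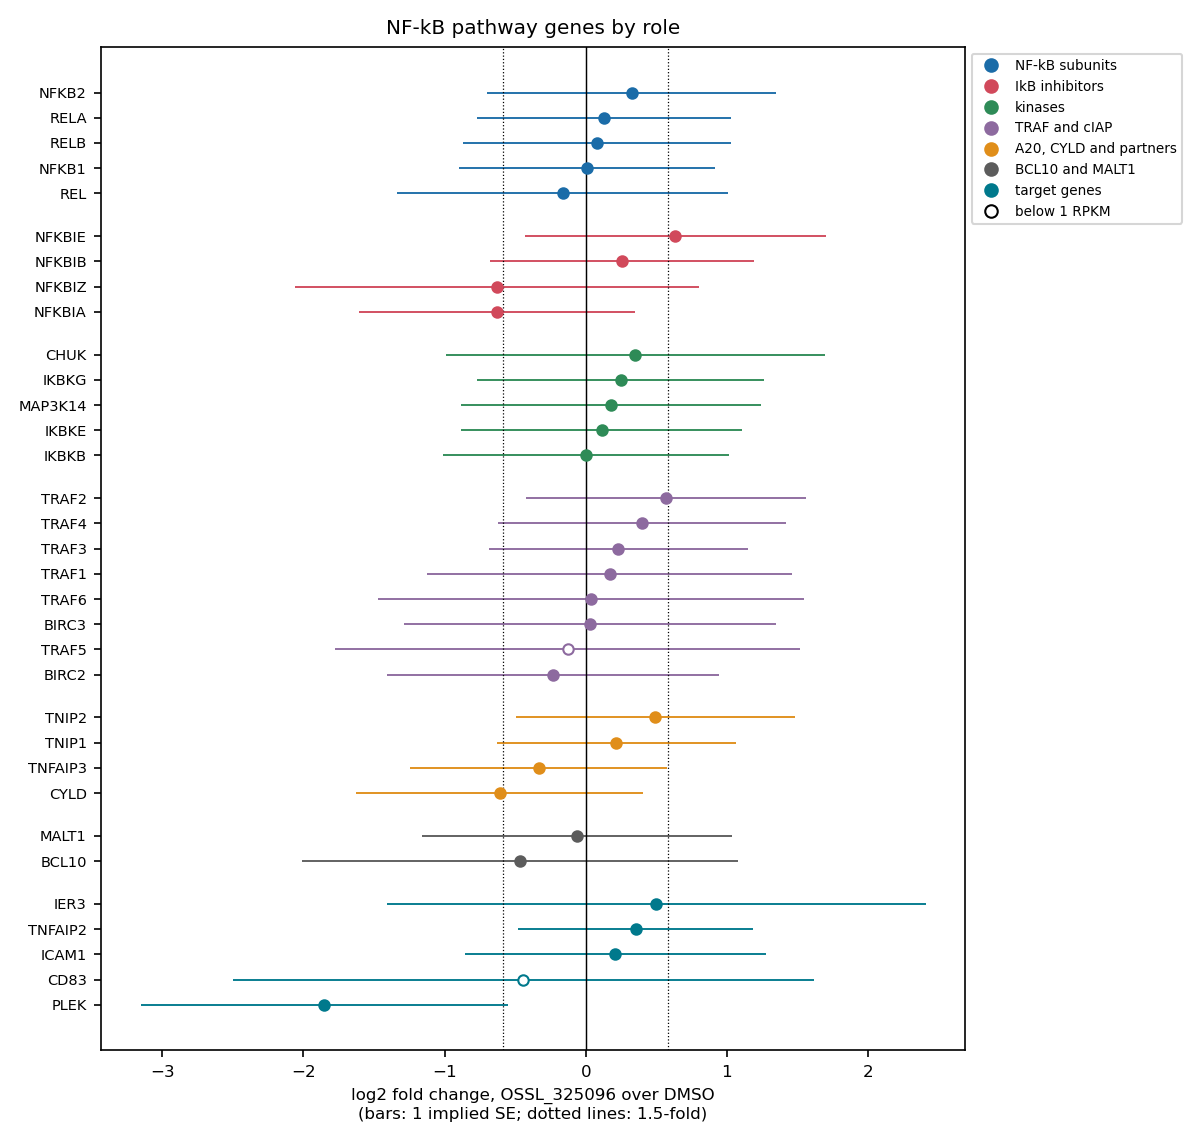
The 33 members, grouped by role, with their log2 ratios of OSSL_325096 over DMSO on the horizontal axis. Bars extend 1 implied SE to each side, with 2 libraries per treatment behind each point. Dotted lines mark 1.5-fold, and open circles are the 2 members below 1 RPKM. PLEK, at -1.85 with an SE of 1.30, is the single member whose bar does not reach 0.

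The labelled cell type was checked against its markers. All 8 plasma cell markers had at least 1 RPKM (6.26 to 189 RPKM, 821 RPKM in sum), while 0 of 4 B cell, 0 of 4 myeloid and 0 of 4 stromal markers did. Of 4 T cell markers, CD8A alone did, at 1.02 RPKM, and MS4A1, CD3D, FCGR3A and DCN, 1 of each of these lists, were listed at 0. Of the plasma cell markers, 3 of 8 lay 1.5-fold or more below the control and 1 of 8 as far above it, beside 4.95% of all genes each way; 6 of 8 lay below 0 and their median was -0.22. In the authors' deposited table CD38, a surface enzyme, had a log2 ratio of -0.73, IRF4, a plasma cell transcription factor, -0.67 and TNFRSF17, the receptor BCMA, -0.66, while SDC1, the surface proteoglycan CD138, had 0.60 (unadjusted p = 0.573, 0.515, 0.468 and 0.616). No plasma cell marker had an adjusted or unadjusted p under 0.05. The part of these markers in the members' values was not tested.

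Among the NF-kB subunits, no gene was 1.5-fold from the control. NFKB2, the precursor gene of the noncanonical branch (chromosome 10, 104153867 to 104162281, hg19), had the highest level of all members, 48.6 RPKM, and a log2 ratio of 0.32 (implied SE 1.02) in the authors' deposited table. RELB, its usual partner (chromosome 19, 45504688 to 45541452), had 27.7 RPKM and a log2 ratio of 0.08 there. The canonical pair RELA and NFKB1 stood at 15.5 and 14.5 RPKM in the authors' deposited table, with log2 ratios of 0.13 and 0.01 (implied SEs 0.90 and 0.91). REL, the subunit known for its part in lymphocyte activation, was lowest in level at 3.33 RPKM and was listed at -0.16 there (implied SE 1.17). The order of levels was thus NFKB2, RELB, RELA, NFKB1 and REL; which neighbours differ beyond their spread cannot be said without values of single libraries.

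The IkB family genes among the members lay on both sides of the control, with 3 of the 4 past 1.5-fold. NFKBIA, the gene of IkB-alpha (chromosome 14, 35870717 to 35873955), is a rapid NF-kB target that switches the canonical branch off. It had 21.7 RPKM in the authors' deposited table and a log2 ratio of -0.63 (implied SE 0.98, unadjusted p = 0.520). NFKBIZ, a nuclear and inducible family member (chromosome 3, 101546835 to 101579866), had 2.21 RPKM and a log2 ratio of -0.63 by the authors' deposited table. Its implied SE was 1.43 and its unadjusted p 0.662. NFKBIZ shares 194 exon bases (3.29% of its own) on the same strand with NXPE3, listed at 5.15 RPKM, so some reads may be mixed. NFKBIE, the gene of IkB-epsilon (chromosome 6, 44225903 to 44233500), went the other way, with 14.0 RPKM and 0.63 there (implied SE 1.07, unadjusted p = 0.552). NFKBIB, the gene of IkB-beta, had 26.4 RPKM and a log2 ratio of 0.26 in the authors' deposited table. The IkB family genes thus spread over 1.26 on the log2 scale, and the difference between any pair of them was not tested. NFKBIA, NFKBIZ and NFKBIB all carry a kappaB match in a promoter window, and NFKBIA and NFKBIZ are shown above. NFKBIE had no window to search.

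The genes of the kinases and of the scaffold IKBKG lay in a narrow band, all 5 at or slightly above 0 as deposited. With the GC trend described below removed, 1 of the 3 with a GC content was above 0. CHUK, the IKK-alpha gene that serves both branches, had the largest fold change of them, 0.35 on the log2 scale at 2.06 RPKM in the authors' deposited table (implied SE 1.34). IKBKG, the scaffold NEMO, had 0.25 at 5.21 RPKM there. MAP3K14, the gene of the kinase NIK that drives the noncanonical branch, had 0.18 at 7.03 RPKM in the authors' deposited table. IKBKE, an IKK-related kinase, had 0.11 at 9.94 RPKM, and IKBKB, the main kinase of the canonical branch, 0.00 at 4.03 RPKM there. The value of IKBKG is uncertain, because its pseudogene IKBKGP1 on the same chromosome is a near copy and was listed at 9.69 RPKM, above IKBKG itself, with a log2 ratio of 0.36. Reads of MAP3K14 and its antisense gene MAP3K14-AS1 (1.26 RPKM) may also be mixed, since 15.1% of the exon bases of MAP3K14 are shared and no source here states whether counting used strand.

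The adaptors that pass receptor signals on were near the control as well, with 6 of 7 measured genes above 0 and 0 of 7 past 1.5-fold, beside 51.0% of all genes above 0 and 90.1% within 1.5-fold. TRAF2, a ubiquitin ligase adaptor that restrains NIK and also passes TNF signals (chromosome 9, 139776364 to 139821059), had a log2 ratio of 0.57 at 14.4 RPKM by the authors' deposited table; its implied SE was 0.99 and its unadjusted p 0.566. TRAF4 had 0.40 at 29.8 RPKM and TRAF3, the partner of TRAF2 in degrading NIK and a gene often lost in myeloma, 0.23 at 7.95 RPKM there. TRAF1, itself a target gene in B cells, had 0.17 at 2.18 RPKM and TRAF6, the adaptor of Toll-like and interleukin-1 receptors, 0.04 at 1.78 RPKM in the authors' deposited table. The neighbouring cIAP genes on chromosome 11, BIRC3 (102188215 to 102210134) and BIRC2 (102217942 to 102249401), had 0.03 and -0.23 at 2.96 and 4.71 RPKM there. Both encode ubiquitin ligases that act with TRAF2 and TRAF3, and BIRC3 is itself an NF-kB target (implied SEs 1.32 and 1.18).

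Negative regulators were split. The deubiquitinase genes lay below 0: CYLD, a tumour suppressor that removes linear and lysine-linked ubiquitin chains (chromosome 16, 50775961 to 50835846), had -0.61 at 5.04 RPKM by the authors' deposited table; its implied SE was 1.02 and its unadjusted p 0.549. TNFAIP3, the gene of A20, a feedback target with paired kappaB matches in its promoter, had -0.33 at 19.5 RPKM there (implied SE 0.91). The genes of the A20-binding proteins lay above 0, TNIP2 with 0.49 at 21.4 RPKM and TNIP1 with 0.22 at 16.7 RPKM in the authors' deposited table (implied SEs 0.99 and 0.85). BCL10 and MALT1, which link antigen receptors to the IKK complex, had -0.46 and -0.06 at 3.10 and 5.81 RPKM there (implied SEs 1.54 and 1.10).

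PLEK set the target genes apart from each other. PLEK (chromosome 2, 68592305 to 68624585) had 12.6 RPKM and a log2 ratio of -1.85 (implied SE 1.30, interval at 95% from -4.40 to 0.69) in the authors' deposited table, the 16th lowest of 11324 genes. TNFAIP2, a TNF-induced gene, had 0.35 at 24.8 RPKM (implied SE 0.83) there. ICAM1, the adhesion molecule CD54, had 0.21 at 15.5 RPKM, and the early response gene IER3 0.50 at 2.07 RPKM by the authors' deposited table, where the implied SE was 1.91. IER3 shares 32.6% of its exon bases with an antisense transcript listed at 0.758 RPKM, so its low value is uncertain. Without PLEK, 3 of 30 members were at least 1.5-fold lower, and the SD of the log2 ratios over members was 0.35 in place of 0.49, beside 0.40 for all genes.

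**Figure D3:**
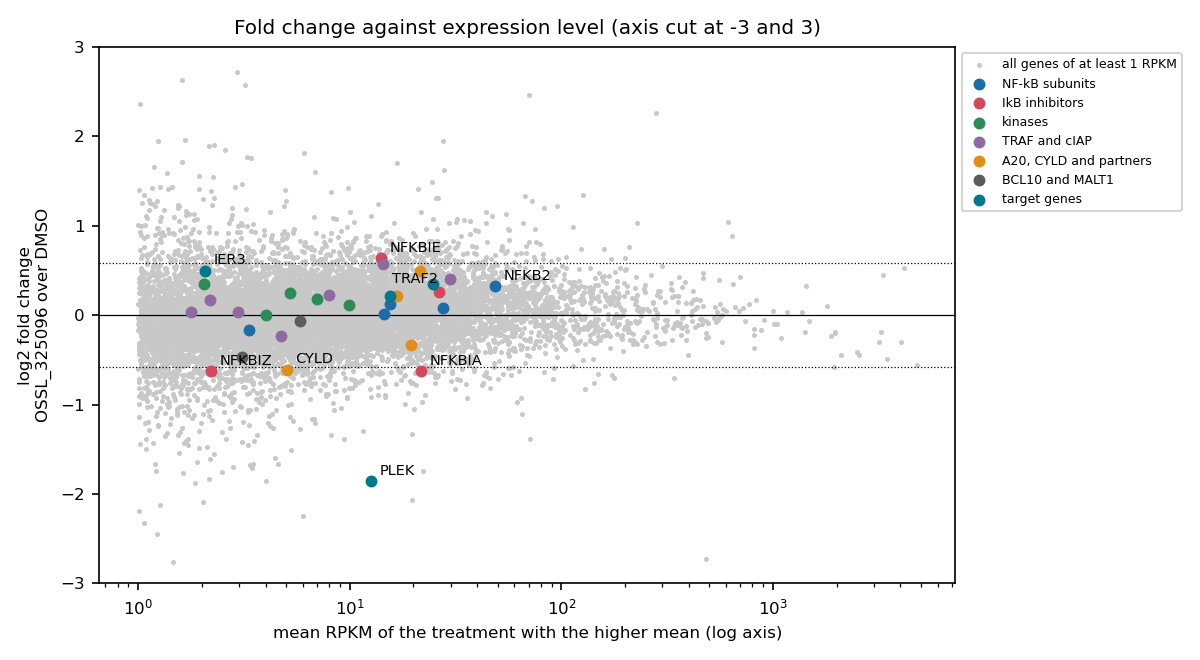
Log2 ratio of OSSL_325096 over DMSO (vertical axis) against the mean RPKM of the treatment with the higher mean (log axis). Grey points are all 11324 genes of at least 1 RPKM, coloured points the 31 members by role and dotted lines 1.5-fold. Members spanned 1.78 RPKM (TRAF6) to 48.6 RPKM (NFKB2), and PLEK lies apart from them at 12.6 RPKM.

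The members' fold changes tended to follow the GC content of their transcripts, a property the list did not use. Of the 17 members above the median GC content of all genes (50.2%), 16 had a fold change above 0 (94.1%), beside 70.6% of all genes above that GC content. Of the 12 below it, 8 had one below 0 (66.7%), beside 68.6% of all genes below that GC content. NFKBIA, at 52.2% GC, was the exception on the high side, and CHUK (37.7%), BIRC3, TRAF6 and NFKB1 were those on the low side. Medians were 0.23 and -0.20 in these groups, beside 0.15 and -0.12 for all genes above and below the same GC content. The Spearman correlation between GC content and fold change was 0.62 across 29 members and 0.47 across 11104 genes. These points are genes of the same 4 libraries and not independent replicates. RELB, NFKBIB and RELA had the highest GC content among members and fold changes of 0.08, 0.26 and 0.13 as deposited.

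With the trend in GC content, transcript length and expression removed, the members' median was 0.02 in place of 0.13 over the same 29 genes, with 17 above and 12 below 0 in place of 20 and 9. PLEK kept -1.81 and NFKBIA had -0.70, the 2 members that stayed at least 1.5-fold lower, where 3.96% of all genes did. CYLD had -0.45, NFKBIZ -0.49 and TNFAIP3 -0.36 after removal. On the high side CHUK took the place of NFKBIE, with 0.59 against 0.41 (3.43% of all genes were as high). The sign changed for 7 members whose fold changes were small (at most 0.26), namely IKBKB, MALT1, MAP3K14, NFKBIB, REL, RELA and RELB. The side of 0 on which these genes lay as deposited thus depends on this step. What part GC content had in the deposited fold changes was not tested. IKBKG and IKBKE had no GC content under their identifiers and stayed out of these values.

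**Figure D4:**
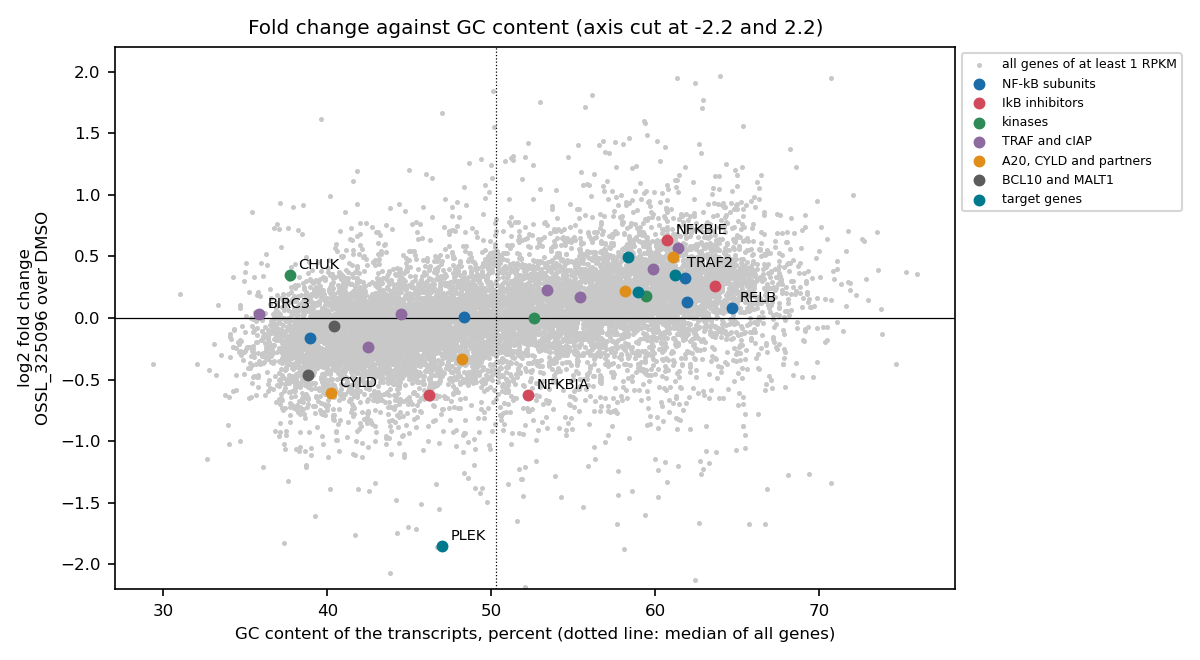
Log2 ratio of OSSL_325096 over DMSO (vertical axis) against the median GC content of a gene's transcripts in percent (horizontal axis), for all genes of at least 1 RPKM with a GC content (grey) and 29 members (coloured by role). The dotted line is the median GC content of all genes, 50.2%. To its right 16 of 17 members lie above 0, and to its left 8 of 12 lie below.

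Members with and without a kappaB match in a promoter window were set side by side. The 11 with a match and at least 1 RPKM had a median log2 ratio of 0.01, 6 above and 5 below 0 (-0.63 for NFKBIA to 0.32 for NFKB2). The 16 without had a median of 0.17, 12 above and 4 below 0 (-1.85 for PLEK to 0.57 for TRAF2). RELB, NFKBIE, IKBKB and IER3, with log2 ratios of 0.08, 0.63, 0.00 and 0.50, had no window matched and are in neither group. Across all genes the medians were 0.04 with a match (1391 genes) and 0.01 without (6616 genes). Members below 0 as deposited were found in both groups: NFKBIA, NFKBIZ, CYLD, TNFAIP3 and REL hold a match, and PLEK, BCL10, BIRC2 and MALT1 do not. Of these, REL and MALT1 changed sign with the GC trend removed.

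Other genes of the pathway were taken by role, 79 in all and none of them a member, of which 57 had at least 1 RPKM. Of these 57, 3 (5.26%) lay 1.5-fold or more above the control and 1 (1.75%) as far below it, beside 4.95% of all genes each way, and 0 had an adjusted or unadjusted p under 0.05. Their median was 0.08. Receptors and adaptors had a median of 0.32 over 12 genes (0.18 with the GC trend removed), and the TNF receptor genes in this list lay on both sides. TNFRSF1B, the gene of TNF receptor type II, had 0.78 at 22.1 RPKM by the authors' deposited table (unadjusted p = 0.366, implied SE 0.87), whereas TNFRSF1A, the gene of the type I receptor with the death domain, had -0.76 at 6.83 RPKM (implied SE 1.10, unadjusted p = 0.488). TNFRSF13B, the BAFF and APRIL receptor TACI of plasma cells, had 0.64 at 4.16 RPKM there (implied SE 1.81). With the trend removed, TNFRSF1B had 0.55, TNFRSF13B 0.50 and TNFRSF1A -0.91.

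The genes of ubiquitin chains, upstream kinases and IkB-like proteins had a median of -0.05 over 23 genes, and 1 of them was past 1.5-fold. That was NFKBID, a nuclear IkB-like gene, with 0.86 at 1.62 RPKM in the authors' deposited table and an implied SE of 1.83. Further target genes had a median of 0.12 over 22 genes, between -0.48 and 0.51, and 0 of them were past 1.5-fold. After removal of the trend their median was -0.06 over the genes with a GC content. Of the 38 further targets, 10 were listed at 0 RPKM, including IL6, IL8, CXCL1, CXCL2, CXCL10, CCL2, VCAM1, SELE and PTGS2. Among all 57773 genes of the authors' deposited table, 34643 were listed at 0, so this count is no trait of the targets. TNF itself was listed at 0.0275 RPKM.

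Genes used beside pathway genes in an index of NF-kB activity in myeloma include IL2RG, CD74 and WNT10A. IL2RG, the common cytokine receptor chain, had -0.17 at 39.4 RPKM, CD74, the invariant chain of HLA class II, 0.17 at 419 RPKM and WNT10A 0.21 at 16.0 RPKM in the authors' deposited table. Apart from PLEK, the target genes measured here lay within 1.55-fold of the control, and each such value carried an implied SE of 0.83 or more on the log2 scale.

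**Figure D5:**
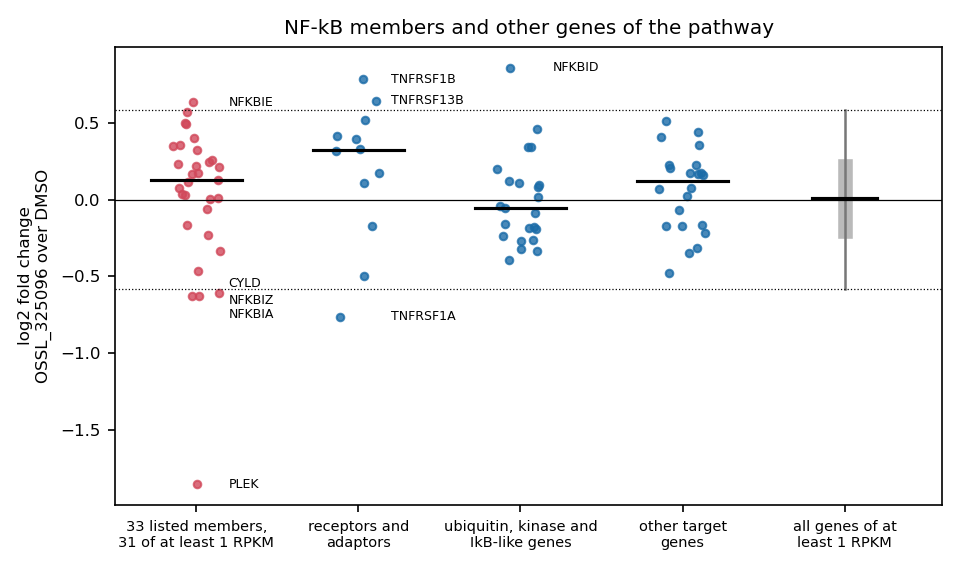
Log2 ratio of OSSL_325096 over DMSO for the 31 measured members (red) and for 57 other genes of the pathway in 3 lists (blue). Black bars are medians, 0.13 for the members and 0.32, -0.05 and 0.12 for the lists, dotted lines mark 1.5-fold and genes past it are named. For all 11324 genes the thin line spans percentiles 5 to 95 (-0.58 to 0.58) and the thick bar the quartiles.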

How the data were processed

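Per the series' design text, mapping to hg19, RPKM values and the treatment comparison all came from Biomedical Genomics Workbench 5; the labels' protocols name oligo(dT) capture and random hexamers. How reads were counted, the strand setting, the model and the depth are not stated, so no counting interval is given. The authors deposited 6 columns of values for the comparison over both lines: the RPKM mean of the higher group, a log2 fold change, a signed fold score, and unadjusted, false discovery rate and Bonferroni p-values. The planned limma fit needs single libraries, so these deposited p-values took its place. Genes of at least 1 RPKM were kept (11324 of the 23130 with a fold change) and adjusted by Benjamini-Hochberg. The labels do not say that libraries came from separate cultures, and the 2 libraries of a treatment came from different lines. The p-values thus reach no further than these libraries. With the model not stated, which spread they measure cannot be said.

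Trends were removed by regression on GC content, log2 length and log2 RPKM to degree 3 (15.8% of variance), with medians over GENCODE 44 transcripts on GRCh37, which covered 98.1% of genes; this step was tested on simulated data. Of the members, 31 had their identifier in that annotation, all on the same chromosome and strand as in the table. Promoters were matched by symbol to RefSeq windows on GRCh38.p14, with no coordinate converted between builds. Python 3.11.15, pandas 2.3.3, numpy 2.4.6 and scipy 1.17.1 were used.

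The members and lists were chosen with earlier results of these data known. Named genes are all members, genes of the other lists past 1.5-fold, and IL2RG, CD74 and WNT10A, used in a myeloma index; others were named after their values were seen. Alternatives were the RPKM minimum, centring on the median, trend removal, the fold threshold, the promoter window and, added after seeing the data, leaving out PLEK.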

Additional observations from a re-analysis of the deposited data

How the results depend on the processing

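The count of members past an adjusted p of 0.05 was 0 also with no minimum on RPKM, at 5 RPKM or more and without PLEK. The counts of members past 1.5-fold, 1 higher and 4 lower, were the same with no minimum on RPKM and with fold changes minus the median of all genes. At 5 RPKM or more, 3 of 21 members were lower, beside 2.7% of all genes. With the GC trend removed the lower members numbered 2 of 29, and 1 of the other pathway genes was higher. With no minimum on RPKM, 19.8% of all genes were as far higher and 18.0% as far lower. At that setting 8 of 69 other pathway genes were higher and 2 lower. These 8 include TNF, LTBR, BCL2A1 and IL1R1, whose repeated values are described below and from which no fold is read. At 5 RPKM or more, 1 of 39 other pathway genes was higher, beside 4.5% of all genes. A 2-fold threshold left 0 members higher, 1 lower (PLEK) and 0 other pathway genes in either direction, while a threshold of 0.32 on the log2 scale gave 8 members higher and 14 other genes higher and 6 lower. Past 0.32, 16.4% of all genes were higher and 15.2% lower. The members' median stayed between 0.02 and 0.21 over these alternatives. Each member with a value moved by less than its implied SE, which is a weak check. The largest move with the GC trend removed was 0.27, and the smallest implied SE was 0.83. That step also changed the sign of 7 members. Promoter matches were found in 12 members also in the 250 bases before the start. No paired analysis was possible because the table holds no values of single libraries. For the same reason, fits without each replicate and with another pseudocount were not run.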

Other observations

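An antisense transcript at the start of MALT1, RP11-126O1.5 (chromosome 18, 56337712 to 56339109, minus strand, hg19), was 8.95-fold higher with OSSL_325096 by the authors' deposited table, a log2 ratio of 3.16 at 4.15 RPKM (implied SE 1.88, unadjusted p = 0.0925), the 5th highest of 11324 genes, while MALT1 itself had -0.06. It was singled out after its value was seen, shares 384 exon bases with MALT1, and without a stated strand setting its reads and those of MALT1 cannot be told apart.

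At the lowest levels the table holds repeated values. TNF and the receptor gene LTBR had a log2 ratio of 2.33 by the authors' deposited table that 734 genes share to all deposited digits, none above 0.250 RPKM. BCL2A1 and IL1R1 had a value, also 2.33 when rounded, that 924 genes share, none above 0.186 RPKM. These genes were picked out with their values in view, and no fold is read from them.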
